A study of Homo sapiens with 12 samples.

Results

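The poly(A)-binding protein genes PABPC1, PABPC3, PABPC4 and PABPN1 and the Y-box protein gene YBX1 encode proteins that coat messenger RNA. Their 5 rows were taken by gene symbol out of the 25268 gene symbols listed for HEK293 cells, and all 5 were among the 14676 genes that passed a filter on low values (mean of at least 0.5 over the 12 libraries). The group was put together with earlier results of these libraries known: PABPC1 and YBX1 had been lower in polysomal than in total RNA of control cells. The values of that contrast are therefore given for the 5 genes as a description, without a test.

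HEK293, an established human embryonic kidney line, was transiently transfected by lipofection. The control cells, labelled wild type, received the mock empty vector. The RBMX cells received 2 µg of pCMV6-HIS-HA-RBMX, a plasmid in which the CMV promoter drives tagged RBMX. RBMX, an RNA-binding protein, binds pre-mRNA, and the study places it in both nucleus and cytoplasm. In a preliminary western blot, the study saw cytoplasmic RBMX mostly in polysomal fractions. The share of cells that took up the plasmid is not given. RNA was collected 48 h later from 3 control and 3 RBMX cultures. All cells were treated with cycloheximide, and the lysate was centrifuged. It was then layered on a sucrose gradient in which mRNAs carrying several ribosomes sediment fastest. Polysomal RNA came from the heavy fractions and total RNA from a pool of all fractions. Libraries with the same replicate number were taken as a pair, so that the 12 libraries form 6 pairs, 3 with each vector. Expression was given in FPKM (fragments counted per kilobase of a transcript, relative to all fragments mapped), and a difference is given on the log2(FPKM + 1) scale, which understates the change of a low gene.

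A poly(A)-binding protein holds the tail at the 3′ end of an mRNA. The cytoplasmic members of the family, PABPC1, PABPC3 and PABPC4, bind the tail together with the cap-binding complex at the other end and take part in both translation and deadenylation. PABPN1 is the nuclear member and helps poly(A) polymerase to extend the tail. YBX1 belongs to the cold-shock domain proteins and is a main packing protein of cytoplasmic mRNA. PABPC1 mRNA belongs to the TOP mRNAs, which begin with a C followed by an unbroken run of pyrimidines (C or T in the DNA) and whose loading on ribosomes follows growth signals. Most ribosomal protein genes and many elongation factor genes make such mRNAs.

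The start of the transcript is therefore shown for some genes that have an entry in the RefSeq promoter table (GRCh38.p14). YBX1 and PABPN1 are printed beside EEF1G, EEF1A1 and RPLP0. The changes of those genes across the libraries, each around its own mean, were among the most like those of YBX1 or PABPC1. Each stretch runs 5′ to 3′ on the strand of the gene, from 10 bases before the RefSeq start through the first 20 transcribed bases, with the longest run of pyrimidines in capitals. EIF3L had no entry, and the starts of PABPC1, PABPC3 and PABPC4 are not shown here.
YBX1, chr1:42682408-42682437, plus strand: ctgtcccgccaTTCTCgctagttcgatcgg
PABPN1, chr14:23321447-23321476, plus strand: ggcgggCCCCagtctgagcggcgatggcgg
EEF1G, chr11:62573872-62573901, minus strand: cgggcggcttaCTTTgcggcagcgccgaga
EEF1A1, chr6:73521013-73521042, minus strand: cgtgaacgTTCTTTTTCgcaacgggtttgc
RPLP0, chr12:120201092-120201121, minus strand: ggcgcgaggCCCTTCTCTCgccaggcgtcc

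In EEF1A1 and RPLP0 a C followed by 4 pyrimidines stood exactly at the start base, inside runs of 9 and 10 pyrimidines. In YBX1 a run of 5 pyrimidines began 1 base after the start base, and in EEF1G a run of 4 did. The longest run near the printed start of PABPN1 had 4 bases and began 4 bases before the start. Another RefSeq start of PABPN1, in the window chr14:23321996-23322025, is not printed. Its longest run had 3 bases and began 7 bases before the start. A C followed by 4 bases that are each C or T, read at the start base on the gene's own strand only, was found at 4.07% of the 35116 start sites in the table and at 58.8% of the 80 start sites of ribosomal protein genes. A run of at least 8 pyrimidines anywhere in the window was found at 12.7% and 71.3% of them. These letters depend on the start site RefSeq chose and say nothing about the start used in these cells.

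By position on GRCh38 (GENCODE 29), PABPC1 is a gene of chromosome 8 on the minus strand, with 15 exons in its longest transcript. PABPC3, at chr13:25095868-25099254 on the plus strand, is an intronless gene with 1 exon. PABPC4 lies at chr1:39560816-39576790 on the minus strand with 16 exons, PABPN1 at chr14:23321289-23326185 on the plus strand with 6, and YBX1 at chr1:42682427-42702349 on the plus strand with 7.

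The level of RBMX matched the labels in every library, with 87.4 to 148 FPKM in the 6 control libraries and 1072 to 2073 FPKM in the 6 RBMX libraries. The HEK293 markers VIM, KRT8, KRT18, NEFL, NEFM and LIN28B were all expressed, with means between 21.1 and 489 FPKM. Of 6 markers of other cells, PTPRC, CD3E, ALB, HBB and COL3A1 had means of at most 0.113 FPKM, and COL1A1, a fibroblast collagen, had 5.77 FPKM. How many fragments stand behind each library is unknown. The FPKM of a library summed to between 817528 and 1903320, of which genes for small RNAs took 40.6% to 72.9%.

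Some libraries stood apart. In control culture 3 the small RNA share was the highest of the control libraries in both fractions, and KRT8 was at 68.0 FPKM in total and 63.4 FPKM in polysomal RNA, where the other 10 libraries had 146 to 188 FPKM. In the polysomal library of RBMX culture 2, RMRP, the RNA of the ribonuclease MRP that carries no ribosomes, was 31.8 times its level in total RNA, RPPH1 11.3 times and MALAT1 7.43 times, where these ratios were 0.0342 to 1.96 in the other 5 cultures. Their part in the results below was not tested, and values without these libraries stand beside the results that moved most without them.

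YBX1 was the most abundant of the 5 mRNAs. Per length, its mean FPKM over the 12 libraries was 419, rank 138 of the 14173 genes tested that do not make small RNAs. PABPC1 followed with 123 FPKM (rank 710), PABPC4 with 64.7 FPKM (rank 1542), PABPN1 with 39.3 FPKM (rank 2678) and PABPC3 with 11.8 FPKM (rank 6977). The ranges of PABPC1 (79.9 to 181 FPKM) and PABPC4 (49.4 to 75.7 FPKM) over the 12 libraries did not meet, while PABPN1 reached 48.6 FPKM, just under the lowest PABPC4 value. Their spread differed. The coefficient of variation over the 12 libraries was 32.5% for PABPC1, 30.6% for PABPC3 and 31.6% for YBX1, against 9.94% for PABPC4 and 15.0% for PABPN1.

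**Figure D1:**
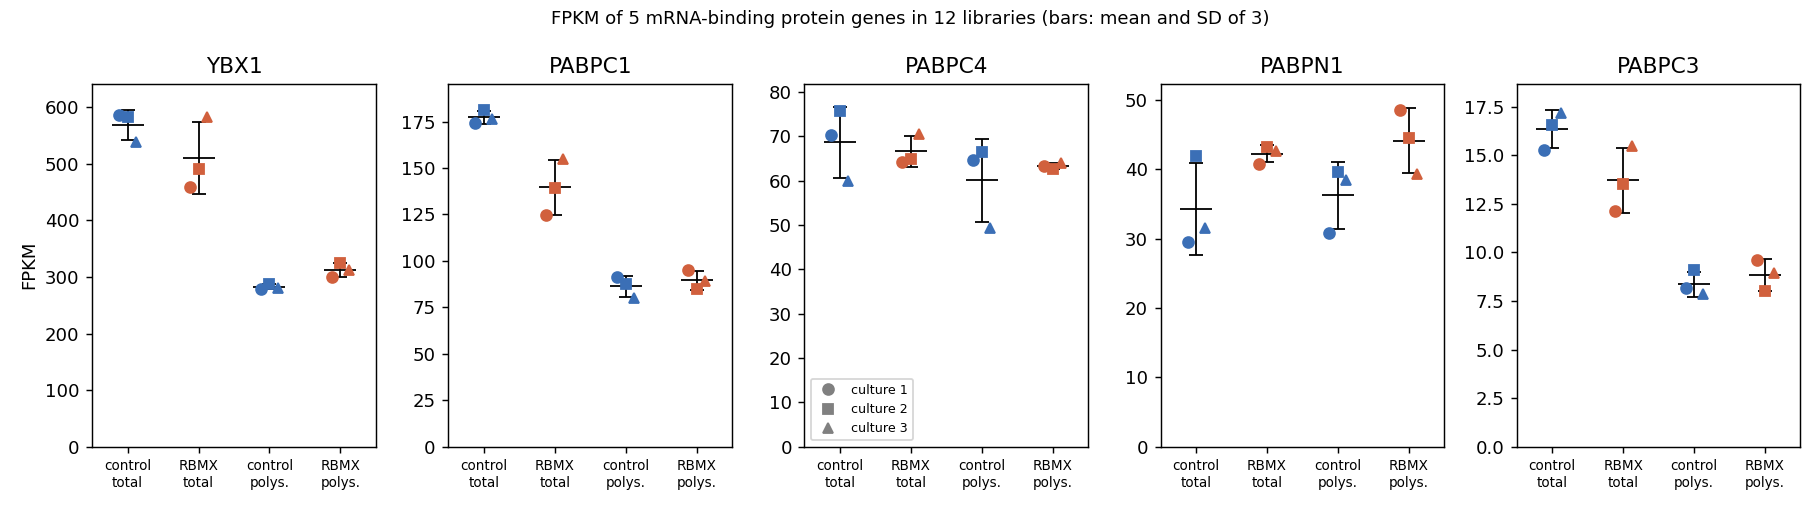
FPKM (linear axis from 0) of YBX1, PABPC1, PABPC4, PABPN1 and PABPC3 in each of the 12 libraries, grouped by vector and fraction, with horizontal bars for the mean and vertical bars for the SD of 3 libraries; marker shapes give the culture. YBX1, PABPC1 and PABPC3 sit lower in every polysomal library than in every total library of both vectors, PABPC4 and PABPN1 are nearly level, and PABPN1 is the gene whose RBMX libraries lean higher.

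In control cells, the contrast behind the choice of these genes, PABPC1 stood at 174, 181 and 177 FPKM in total RNA of cultures 1 to 3 and at 91.4, 87.6 and 79.9 FPKM in polysomal RNA. YBX1 stood at 586, 582 and 539 FPKM in total RNA and at 279, 288 and 281 FPKM in polysomal RNA. PABPC3 stood at 15.3, 16.6 and 17.2 FPKM in total RNA and at 8.18, 9.07 and 7.84 FPKM in polysomal RNA. For these 3 genes every polysomal library lay below every total library, as for 7.31% of all genes tested. Of the 3, PABPC3 cannot be seen apart from PABPC1, as described below.

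PABPC4, an inducible relative of PABPC1, stood at 70.3, 75.7 and 60.0 FPKM in total RNA of control cells and at 64.7, 66.4 and 49.4 FPKM in polysomal RNA. The fractions overlapped, and culture 3 was the lowest in each. PABPN1 stood at 29.6, 41.9 and 31.5 FPKM in total RNA and at 30.8, 39.6 and 38.5 FPKM in polysomal RNA, where the fractions overlapped too. The log2 differences of polysomal from total RNA were -1.03 for PABPC1, -1.005 for YBX1, -0.89 for PABPC3, -0.19 for PABPC4 and 0.086 for PABPN1, beside a median of 0 over all genes tested. In this contrast 12 of the 14676 genes, 0.0818%, passed the threshold (limma, Benjamini-Hochberg adjusted p up to 0.05).

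The RBMX cells gave the same contrast in libraries that the choice did not use. PABPC1, the main cytoplasmic tail-binding protein, stood at 125, 139 and 155 FPKM in total RNA of cultures 1 to 3 and at 95.01, 84.8 and 89.4 FPKM in polysomal RNA. All 3 polysomal libraries lay below all 3 total libraries. The log2 difference was -0.63 (standard error 0.095, 95% interval -0.86 to -0.39), and the test across all genes narrowly missed its threshold (limma adjusted p = 0.0534). YBX1 stood at 459, 492 and 582 FPKM in total RNA and at 301, 325 and 312 FPKM in polysomal RNA, again without overlap. Its log2 difference was -0.70 (standard error 0.12, 95% interval -0.99 to -0.41, limma adjusted p = 0.0628).

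PABPC3, an intronless relative of PABPC1, stood at 12.1, 13.5 and 15.5 FPKM in total RNA of RBMX cells and at 9.60, 7.99 and 8.94 FPKM in polysomal RNA, a log2 difference of -0.58 (standard error 0.11, limma adjusted p = 0.0801). PABPC4 stood at 64.3, 64.9 and 70.6 FPKM in total RNA and at 63.2, 62.6 and 64.0 FPKM in polysomal RNA. Its fractions did not overlap, but by a narrow gap, and the 95% interval of its log2 difference ran from -0.20 to 0.058 (limma adjusted p = 0.453). PABPN1, the nuclear member, stood at 40.9, 43.3 and 42.7 FPKM in total RNA and at 48.6, 44.5 and 39.3 FPKM in polysomal RNA. Its fractions overlapped, with a 95% interval of the log2 difference from -0.16 to 0.27 (limma adjusted p = 0.732).

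None of the 5 genes passed the threshold in RBMX cells, where 1.34% of all genes tested did (196 genes, 192 of them lower and 4 higher in polysomal RNA). PABPC1, PABPC3 and YBX1 had an unadjusted p under 0.05 (limma), as 13.0% of all genes did in the lower direction. In 4 of the 5 genes all polysomal libraries lay below all total libraries, which was so for 16.2% of all genes tested. Of these 4, PABPC3 cannot be seen apart from PABPC1, as described below, and PABPC4 was separated by a narrow gap. After quantile normalization 2 of the 5 had fractions without overlap. Only 3.35% of all genes tested had a log2 difference as low as that of PABPC1 or lower, 2.89% as low as that of YBX1, 35.0% as low as that of PABPC4. With 3 libraries against 3 the two-sided exact permutation test cannot go below p = 0.1, and it gave 0.1 for PABPC1, PABPC3, PABPC4 and YBX1 and 0.6 for PABPN1.

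With the culture as a block, only 4 genes passed and the limma adjusted p rose to 0.149 for PABPC1, 0.167 for PABPC3 and 0.145 for YBX1. Without the polysomal library of RBMX culture 2 the log2 difference was -0.59 for PABPC1 (limma adjusted p = 0.120) and -0.73 for YBX1 (limma adjusted p = 0.110). When all 12 libraries shared one estimate of the spread, PABPC1 (limma adjusted p = 0.0394) and YBX1 (0.0418) passed, but that estimate includes the control libraries in which they had been chosen. Quantile normalization took the log2 difference of YBX1 to -0.26.

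Culture by culture, the polysomal level of PABPC1 was 0.525, 0.484 and 0.452 of the total level in control cells. In RBMX cells it was 0.761, 0.608 and 0.578 of the total level. These are ratios of FPKM, each relative to its own library, and the total pool includes the polysomal fractions. They take libraries of the same replicate number as one culture, and they do not give the share of an mRNA on polysomes. For YBX1 these ratios were 0.476, 0.496 and 0.522 in control cells and 0.655, 0.662 and 0.535 in RBMX cells. For PABPC3 they were 0.537, 0.548 and 0.456, then 0.791, 0.592 and 0.578. All RBMX cultures lay above all control cultures for these 3 genes, although by little for YBX1, where RBMX culture 3 was close to control culture 3.

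The ratios of PABPC4 ran from 0.823 to 0.921 in control cells and from 0.906 to 0.983 in RBMX cells, and those of PABPN1 from 0.945 to 1.22 and from 0.920 to 1.19. Both genes overlapped between the vectors. The median lay between 0.978 and 1.02 in each of the 6 cultures. It was taken over the genes tested that do not make small RNAs and were above 0 FPKM in all 12 libraries.

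**Figure D2:**
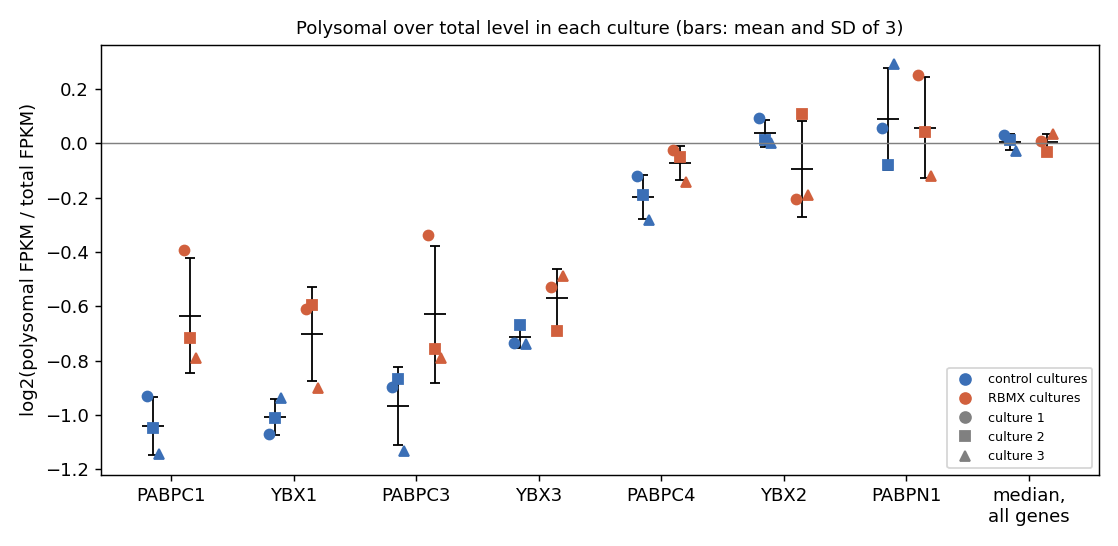
Polysomal over total FPKM of each culture on a log2 scale, control cultures in blue and RBMX cultures in orange, with the mean and SD of 3 cultures. Shown are 7 genes and the median of the genes tested, without small RNA genes and genes not above 0 FPKM in all 12 libraries. PABPC1, YBX1 and PABPC3 lie below the line at 0 in all 6 cultures, with ratios of 0.452 to 0.791. YBX3 lies between 0.599 and 0.713, and PABPC4, YBX2 and PABPN1 lie close to that median.

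Whether RBMX overexpression moved the 2 fractions of a gene unequally was tested as an interaction over the 12 libraries. The fit compared group means without the pairs, so spread between cultures that both fractions share adds to its standard errors and intervals. This test, and the ones of RBMX against control, share their control libraries with the contrast that chose the genes. They are therefore not independent of that choice. PABPC1 and YBX1 were known for a low polysomal level in those control libraries, which leans their difference towards positive values. The shares of all genes set beside them are a description. The log2 effect of RBMX was higher in polysomal than in total RNA by 0.40 for PABPC1 (standard error 0.13, 95% interval 0.12 to 0.69), 0.31 for PABPC3 (standard error 0.14) and 0.30 for YBX1 (standard error 0.14). For PABPC4 the difference was 0.12 (95% interval -0.25 to 0.50) and for PABPN1 -0.030 (95% interval -0.47 to 0.41).

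None of the 5 passed (limma adjusted p = 1.00 for each), where 0.0204% of all genes, 3 of 14676, did. PABPC1 and PABPC3 had an unadjusted p under 0.05 (limma), as 0.211% of all genes did with the higher sign. In either direction it was 0.600% of all genes, in this fit that left out the pairs. The culture ratios did not overlap between the vectors, with RBMX higher, in 3 of the 5 genes and in 2.86% of all genes tested. Of these 3, PABPC3 cannot be seen apart from PABPC1, as described below. The sign for PABPN1 turned under quantile normalization, under rescaling to equal sums and in 5 of the fits that left out 1 library, and that for PABPC4 turned without control polysomal replicate 3. Without both libraries of control culture 3, left out after the data had been seen, the difference was 0.35 for PABPC1, 0.24 for PABPC3, 0.34 for YBX1 and 0.068 for PABPN1, and without both of RBMX culture 2 it was 0.44, 0.37, 0.25 and -0.022.

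RBMX against control was then compared within each fraction. In total RNA PABPC1 was lower in all 3 RBMX libraries (125 to 155 FPKM) than in all 3 control libraries (174 to 181 FPKM), with a log2 fold change of -0.35 (standard error 0.090, 95% interval -0.57 to -0.12, limma adjusted p = 0.178). For PABPC3 it was -0.24 (limma adjusted p = 0.277), for YBX1 -0.16 (0.483) and for PABPC4 -0.038 (0.864), all with overlapping libraries. PABPN1 stood at 34.3 ± 6.63 FPKM (SD, n = 3) in control and at 42.3 ± 1.28 FPKM (SD, n = 3) in RBMX total RNA. The log2 difference between the vectors came to 0.31 (standard error 0.14, 95% interval -0.030 to 0.65, limma adjusted p = 0.293), and control replicate 2, at 41.9 FPKM, lay among the RBMX libraries.

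None of the 5 passed in total RNA, where 0.164% of all genes tested did (24 genes, RBMX included), and 1 of the 5, PABPC1, had libraries that did not overlap with RBMX lower, as 15.4% of all genes had. PABPC1 was also the only one of the 5 with an unadjusted p under 0.05 (limma), as 10.8% of all genes had in the lower direction. In bulk RNA of a transfected culture, a change in every cell and a larger change in the transfected cells cannot be told apart, nor can fewer cells of a kind and less RNA per cell.

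In polysomal RNA the levels of PABPC1, PABPC3 and PABPC4 under RBMX lay close to the control. PABPC1 had 86.3 ± 5.87 FPKM in control and 89.7 ± 5.12 FPKM in RBMX cells (SD, n = 3 each), a log2 fold change of 0.057 (95% interval -0.16 to 0.27). The fold changes were 0.071 for PABPC3, 0.084 for PABPC4 and 0.28 for PABPN1 (95% interval -0.051 to 0.61, limma adjusted p = 0.450).

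YBX1 stood at 283 ± 4.92 FPKM in control and at 313 ± 12.4 FPKM in RBMX polysomal RNA (SD, n = 3 each), and its libraries did not overlap. Between the vectors it differed by 0.14 on the log2 scale (standard error 0.092, limma adjusted p = 0.545). None of the 5 passed (limma), where 0.0477% of all genes tested did, none had an unadjusted p under 0.05, where 11.7% of all genes did, and non-overlap with RBMX higher was seen in 1 of the 5 and in 10.0% of all genes tested. Without control replicate 3, PABPC1 was at -0.35 in total RNA and at 0.0027 in polysomal RNA, and PABPC4 at -0.13 and -0.050. PABPN1 was then at 0.26 and 0.32, and YBX1 at -0.20 and 0.14.

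**Figure D3:**
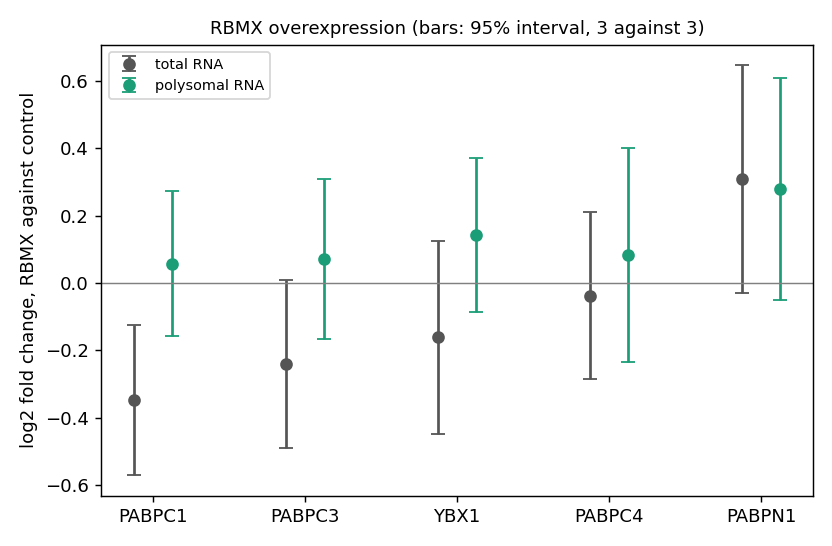
Log2 fold change of RBMX against control cells for the 5 genes in total RNA (grey) and in polysomal RNA (green), with the 95% interval of the limma fit on 3 against 3 libraries. PABPC1 in total RNA, at -0.35, has the only interval that leaves out 0, and PABPN1 lies at 0.31 and 0.28 in the 2 fractions.

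Part of these rows shares sequence with other genes, so their FPKM may hold fragments of each other. The longest transcripts of PABPC3 and PABPC1 matched over 2731 bases with 92.3% identity (blastn). The PABPC3 level was 8.75% to 10.4% of the PABPC1 level in all 12 libraries, and this ratio did not separate fractions or vectors. PABPC4 matched PABPC1 over 1372 bases with 75.4% identity, and its level ran from 34.0% to 41.8% of PABPC1 in control total RNA to 61.8% to 75.8% in control polysomal RNA. In RBMX cells it was 45.7% to 51.5% in total and 66.6% to 73.9% in polysomal RNA. Values of PABPC3 are therefore uncertain, and it cannot be counted as a gene seen apart from PABPC1.

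A second pair behaved in the same way. YBX3P1 is a processed pseudogene of YBX3, the closest expressed relative of YBX1, and matched it over 1092 bases with 95.3% identity. Its level was 5.79% to 6.74% of YBX3 in all 12 libraries. YBX3 and YBX1 themselves matched over only 249 bases with 78.7% identity.

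**Figure D4:**
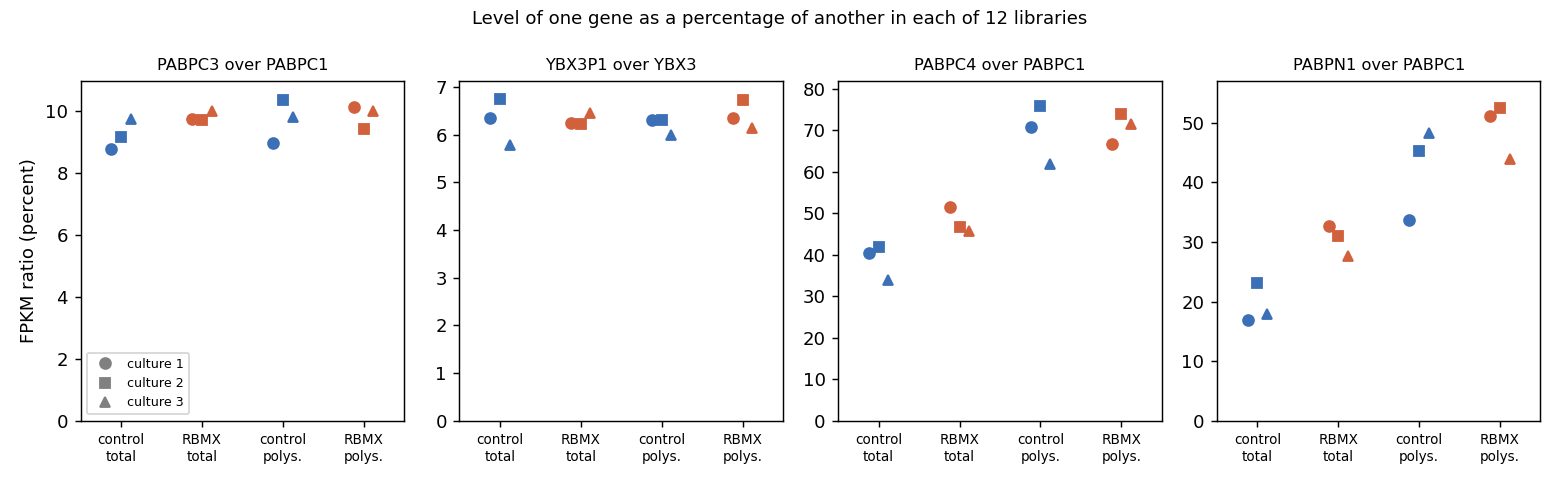
FPKM of one gene as a percentage of another in each of the 12 libraries (linear axes from 0), by vector and fraction. PABPC3 over PABPC1 stays between 8.75% and 10.4% and YBX3P1 over YBX3 between 5.79% and 6.74% in all libraries, while PABPC4 and PABPN1 over PABPC1 are higher in every polysomal than in every total library.

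PABPN1 shares its locus with BCL2L2-PABPN1, a readthrough gene that joins it to the upstream apoptosis regulator BCL2L2. In GENCODE 29, 653 of 3318 exonic bases of PABPN1 (19.7%) also belong to the readthrough gene, and the transcripts matched over 532 bases with 100% identity. BCL2L2-PABPN1 had 59.4 ± 9.14 and 52.8 ± 4.71 FPKM in control total and polysomal RNA and 57.7 ± 4.85 and 42.8 ± 5.47 FPKM in RBMX total and polysomal RNA (SD, n = 3 each).

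Its level ran from 85.0% to 220% of the PABPN1 level, so the split between both rows was not steady. In RBMX cells its log2 difference of polysomal from total RNA was -0.42 without overlap (limma adjusted p = 0.135), and in polysomal RNA its log2 fold change under RBMX was -0.30 (limma adjusted p = 0.425). The sum of both rows was 93.8 ± 6.79 FPKM in control and 99.9 ± 4.40 FPKM in RBMX total RNA, and 89.1 ± 7.03 and 87.0 ± 4.23 FPKM in polysomal RNA (SD, n = 3 each). In RBMX cells the sums did not overlap between fractions (94.9 to 103 FPKM in total and 82.3 to 90.6 FPKM in polysomal RNA). In control cells they did. The mean of the sum was not higher under RBMX in polysomal RNA, unlike that of the PABPN1 row. How the fragments of shared exons were divided between PABPN1 and the readthrough row was not tested.

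Likeness between genes was measured as the root mean square difference of log2(FPKM + 1), each gene centred on its own mean, over the 12 libraries and among 8046 candidate genes with a mean of at least 10 FPKM. The points share libraries and scaling, and the values are a description. They include the control libraries in which PABPC1 and YBX1 were known to be lower in polysomal RNA. The likeness of these genes is therefore not independent of their choice. The closest genes to PABPC1 were EEF1G (0.112), EIF3L (0.113) and EEF1A1 (0.120), where its own spread was 0.441 and the median candidate lay at 0.472. EEF1G and EEF1A1 encode translation elongation factors and EIF3L a subunit of initiation factor eIF3.

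The closest to YBX1 were EEF1G (0.078), RPLP0 (0.129), a protein of the ribosomal stalk, and EIF3L (0.137). The closest to PABPC3 were EEF1G (0.088), EIF3L (0.091) and RPL4 (0.112), a protein of the large ribosomal subunit. PABPC1 and YBX1 were 0.107 apart and PABPC1 and PABPC3 0.082, against 0.379 between PABPC1 and PABPC4 and 0.538 between PABPC1 and PABPN1. EEF1G had mean levels of 396 and 210 FPKM in control total and polysomal RNA and of 354 and 235 FPKM in RBMX total and polysomal RNA.

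PABPC4 was closest to ZIC2 (0.049), FAM120B (0.051) and ZNF281 (0.052), and PABPN1 to COMTD1 (0.094), MED19 (0.107) and FAM207A (0.112). ZIC2 and ZNF281 are zinc finger transcription factors and MED19 is a subunit of Mediator. For these genes the spread of the member itself was small (0.142 for PABPC4 and 0.211 for PABPN1), so that many candidates lay near them.

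Among the relatives of the 5 genes, YBX3 came closest to the pattern of YBX1. YBX3, a cold-shock domain protein that also binds mRNA, stood at 217, 232 and 246 FPKM in total RNA of RBMX cells and at 150, 144 and 175 FPKM in polysomal RNA. Its libraries did not overlap, and its log2 difference was -0.57 (standard error 0.100, limma adjusted p = 0.0723). YBX2, the germ cell member, had 3.12 to 5.10 FPKM in all libraries and a log2 difference of -0.075 (95% interval -0.53 to 0.38). CARHSP1 (-0.054) and LIN28B (-0.12) had overlapping fractions too. Of the 5 cold-shock domain genes tested here none passed, and their median was -0.075.

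PABPC1L, an oocyte poly(A)-binding protein, and PABPC4L were the only other relatives of the poly(A)-binding proteins past the filter of 6 listed. PABPC1L was at 5.22 to 17.7 FPKM and had a log2 difference of -0.50 in RBMX cells (95% interval -1.21 to 0.21), and PABPC4L had a mean of 0.564 FPKM and a log2 difference of -0.12.

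The lists of functionally linked genes separated along the same contrast in RBMX cells. Of the 78 ribosomal protein genes tested, all had a negative log2 difference between polysomal and total RNA, with a median of -0.66, and 75 had polysomal libraries that all lay below the total ones, as 16.2% of all genes had, although 27 of the 78 turned positive under quantile normalization and 1 under equal sums. RPL41 (-1.24, limma adjusted p = 0.0118) and RPS12 (-1.54, limma adjusted p = 0.0483) passed, 2 genes of 78 where 1.31% of all genes passed in the lower direction. PABPC1 and YBX1 lay near the median of this list.

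The 18 other TOP mRNAs tested also had negative differences only, with a median of -0.29, although 9 turned positive under quantile normalization, 6 under equal sums, 3 without the polysomal library of RBMX culture 2 and 1 without the total library of RBMX culture 1. Without that polysomal library the median was -0.20 for these mRNAs and -0.49 for the ribosomal protein genes. TPT1, the translationally controlled tumour protein gene, passed (-1.33, limma adjusted p = 0.0376), while EEF1A1 (-0.50) and EEF1G (-0.58) did not. RPL41, RPS12 and TPT1 lost their calls under some alternatives, passing in 12, 4 and 9 of 16.

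Partners and regulators of cytoplasmic poly(A)-binding protein showed no such offset. The median of the 18 genes tested was 0.018, beside -0.0011 over all genes, and none passed. EIF4G1, the scaffold that joins PABPC1 to the cap complex, had a log2 difference of 0.32 (limma adjusted p = 0.127), and LARP1, which binds the start of TOP mRNAs and PABPC1, had 0.28 (limma adjusted p = 0.131), both with polysomal libraries above total ones. PAIP1 (-0.059) and PAIP2 (-0.11), which bind PABPC1 directly, had overlapping fractions.

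The 13 deadenylase genes (median 0.0083), the 19 nuclear polyadenylation factors that act beside PABPN1 (median 0.0097) and the 20 other cytoplasmic mRNP proteins (median 0.066) had no call either. Their largest values without overlap were -0.16 for CNOT10 of the CCR4-NOT complex, -0.32 for CSTF3 of the cleavage stimulation factor and 0.33 for NCL, which encodes nucleolin (limma adjusted p = 0.140). Of 5 RNAs that carry no ribosomes none passed, and their values spread from -0.95 to 1.81. Without the polysomal library of RBMX culture 2 they spread from -0.98 to 0.40, RMRP going from 1.81 to 0.40 and RPPH1 from 0.40 to -0.96.

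**Figure D5:**
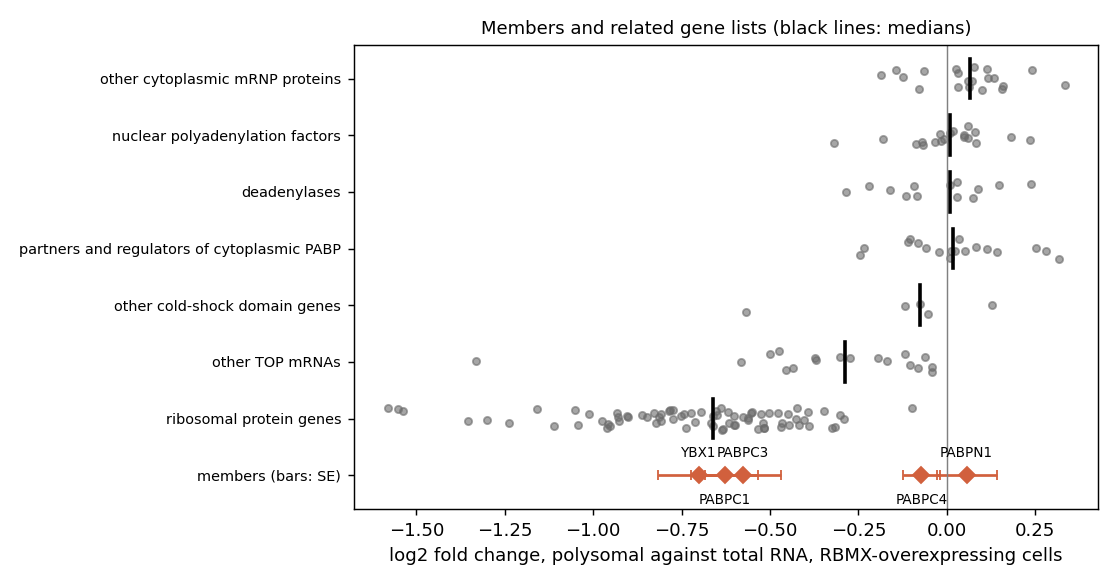
Log2 difference of polysomal from total RNA in RBMX cells for the 5 genes (orange diamonds, bars give the standard error) and for each tested gene of 7 related lists (grey points), with black lines for list medians. YBX1, PABPC1 and PABPC3, at -0.70, -0.63 and -0.58, lie among the ribosomal protein genes (median -0.66), and PABPC4 and PABPN1, at -0.072 and 0.056, lie among the lists centred near 0.

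Under RBMX overexpression no gene of these 7 lists passed in either fraction. In total RNA the medians were -0.063 for the ribosomal protein genes, -0.075 for the other TOP mRNAs and -0.034 for the partners of cytoplasmic poly(A)-binding protein, and without control replicate 3 they were -0.0037, -0.14 and -0.097. The nuclear polyadenylation factors, the functional neighbours of PABPN1, had a positive log2 fold change in 17 of 19 genes in total RNA (median 0.14) and in 16 of 19 in polysomal RNA (median 0.17), beside a median of 0 over all genes tested. Under the other scalings 15 to 17 and 15 to 16 of the 19 were positive. Without control replicate 3 only 12 of 19 (median 0.055) and 11 of 19 (median 0.0080) were. The HEK293 markers had positive values as well, 5 of 6 in total (median 0.20) and 6 of 6 in polysomal RNA (median 0.32), and without that replicate 3 of 6 were positive in each (medians -0.023 and -0.0074).

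CLP1, a cleavage factor subunit, had the largest value among them in total RNA (0.35, limma adjusted p = 0.270), and CSTF2, another cleavage stimulation subunit, the largest in polysomal RNA (0.38, limma adjusted p = 0.563). Without control replicate 3 CLP1 was at 0.19 in total and CSTF2 at 0.083 in polysomal RNA. CNOT7, a catalytic deadenylase, was lower without overlap in both fractions, at -0.30 (limma adjusted p = 0.225) and -0.40 (limma adjusted p = 0.416). PAIP2B, an inhibitor that binds PABPC1, was lower without overlap at -0.29 in both fractions (limma adjusted p = 0.176 and 0.403). Outside these 7 lists, RMRP, of the RNAs that carry no ribosomes, passed and was lower in RBMX total RNA by a log2 fold change of -4.12 (limma adjusted p = 0.0253), with 126 to 259 FPKM in control and 6.93 to 12.2 FPKM in RBMX libraries. Its call held in 11 of 16 alternatives, and in the others the limma adjusted p reached 0.199, the value without RBMX replicate 2.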

How the data were processed

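RNA-seq of 12 libraries from 6 HEK293 cultures was used. The authors deposited gene-level FPKM values, and 0 columns were left unmatched. The submitters' processing notes name CASAVA 1.8, TopHat2 2.0.13, Cufflinks 2.2.1, Cuffnorm and hg19, without the scaling used. The study's text describes hg38 and a count test instead. FPKM is not a count, so limma 3.58.1 (R 4.3.3; lmFit, eBayes with trend) was applied to log2(FPKM + 1) of 14676 genes with a mean of at least 0.5, each contrast on its own 6 libraries and the interaction on 12. P-values were adjusted over all genes tested by Benjamini-Hochberg (threshold 0.05). The fits were also run on simulated data with independent noise in each library. These held no pairing by culture and no libraries that stand apart, so they cannot show how the fits cope with either.

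The 5 genes and the lists were chosen with earlier results of these data known. From each list, genes past the threshold are named, or up to 2 with the largest change without overlap. Other list genes given (YBX2, LIN28B, CARHSP1, PAIP1, PAIP2, PABPC1L, PABPC4L, EEF1G and EEF1A1) were named after their values were seen. One gene of the cold-shock list is not reported here. For each of the 5, the 3 most alike genes are named.

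Total and polysomal RNA of a culture share a gradient, which pairs them. Libraries were paired by replicate number, and the main fits did not use the pairs. Across genes other than small RNA genes, deviations of paired libraries correlated with 0.630, 0.728 and 0.858 in control cultures. In RBMX cultures they correlated with 0.235, 0.0249 and 0.703. Over all genes tested, total replicates 1, 2 and 3 correlated best with polysomal replicates 2, 1 and 3 in control cells. In RBMX cells the best matches were polysomal replicates 3, 1 and 3. Spearman correlations between replicates ran from 0.924 to 0.953. Whether replicates are separate passages of cells is not stated, so p-values cover the spread between these cultures. No 2 libraries were identical. Positions came from GENCODE 29, alignments from BLAST 2.17.0 and plots from matplotlib 3.10.9 in Python 3.11.15.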

Additional observations from a re-analysis of the deposited data

How the results depend on the processing

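Since the fragments behind each library are unknown, no limit of detection is given, and with 3 libraries per group a difference of the size seen for PABPC1 and YBX1 lay close to the threshold. The order of the 5 levels and the 15 most alike genes were the same after median-ratio rescaling. Rescaling to equal sums without small RNA genes moved the median of all genes in RBMX cells by 0.12 (polysomal against total), and relative to that shift PABPC4, at 0.071, stayed below it. A fit that leaves out 1 library keeps 2 in that group. Leaving out a library for the gene lists was also chosen after seeing the data. The cause of the shifts below was not tested.

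RBMX against control in total RNA called 24 genes. A minimum FPKM of 0.1 gave 62, no filter 73, all 12 libraries in one fit 60 and the replicate block 13, and leaving out 1 library gave 19 to 178 (178 without RBMX replicate 3, 40 without control replicate 3). In polysomal RNA, 7 became 14, 22 and 3 with a minimum of 0.1, all 12 libraries and the replicate block, and 9 to 126 without 1 library (126 without RBMX replicate 3, 14 without control replicate 1, 11 without control replicate 3 or RBMX replicate 2). Here same numbers share only a number (correlations of -0.160 to 0.353).

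Polysomal against total RNA in RBMX cells called 196 genes, but 53 with no filter, 70 after quantile normalization, 60 with equal sums, 21 with all 12 libraries, 4 with the replicate block and 10 to 42 without any 1 of its 6 libraries. In control cells 12 became 41 with all 12 libraries, 6 with the replicate block and 12 to 26 without 1 library (26 without polysomal replicate 3), and the split of 3 higher and 9 lower became 3 and 5 after quantile normalization or with equal sums. The interaction called 3 genes, 5 with no filter or the replicate block, and 3 to 7 without 1 library (5 or 7 without control total replicate 3, control polysomal replicate 1 or 2, or RBMX polysomal replicate 1 or 3). With both libraries of control culture 3 left out, chosen after seeing the data, it called 7 and PABPN1 turned to 0.068. Apart from these counts and the adjusted p-values given in the report, the block changed no call of the 5 genes. The number of the 5 genes without overlap went from 1 to 2 in total RNA with equal sums, and after quantile normalization from 1 to 0 in polysomal RNA and from 4 to 2 between fractions of RBMX cells.

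Beside the sign changes of list genes given in the report, these signs turned. After quantile normalization FAU was at -0.11 in total RNA, RBMX at 0.24 between fractions of RBMX cells, and the interaction at 0.28 for RBMX and 0.0035 for PABPN1. With equal sums RBMX was at 0.000192 between fractions of control cells and the interaction of PABPN1 at 0.018. Without 1 library PABPC4 ranged between -0.13 and 0.035 in total RNA, and its polysomal range was -0.050 to 0.16. PABPN1 between fractions of RBMX cells ranged from -0.015 to 0.14, and RBMX between fractions of control cells from -0.24 to 0.15. The interaction ranged from -0.18 to 0.066 for PABPN1, -0.012 to 0.21 for PABPC4, -0.095 to 0.37 for PARN, -0.0996 to 0.36 for FXR1, -0.28 to 0.54 for VIM and -0.086 to 0.31 for NEFL.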
